A study of Mus musculus with 21 samples.

Results

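The G2 and mitosis genes are 48 genes that cells use to enter, carry out and leave cell division. They were chosen by name from 47729 gene identifiers counted in each library. All 48 were matched to 1 identifier each and passed the filter on low counts that left 15789 genes for testing. Their RNA was measured in 16 libraries of germinal centre (GC) B cells from C57BL/6 mice, in 4 groups of 4 libraries. Control mice were CD79a+/+ Ptbp1 fl/fl and conditional knockout (cKO) mice were CD79a cre/+ Ptbp1 fl/fl, so both genotypes carried loxP-flanked Ptbp1, and only the cKO mice carried Cre and a single intact CD79a allele. Cre from the CD79a locus acts in the B cell lineage before germinal centres form. Every mouse had been immunised with the antigen NP-KLH in alum 7 days earlier. No age was recorded in the labels. Cells of 3 to 5 animals, alike in genotype and sex, were pooled for each replicate, and each of the 8 pools gave 1 light zone (LZ) and 1 dark zone (DZ) library. Control and cKO pools of the same replicate number were sorted on the same day: sort days 1 and 2 used males, and sort days 3 and 4 used females.

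In G2, cyclin A and cyclin B build up and bind the kinase CDK1, which CDC25 phosphatases switch on. Mitotic kinases then drive spindle assembly and chromosome condensation, and the spindle checkpoint holds back the anaphase-promoting complex (APC/C) until every kinetochore is attached. Many of these genes are transcribed in G2, when MuvB with B-MYB and FOXM1 acts through a promoter element called the cell cycle genes homology region (CHR). In germinal centres, B cells divide mainly in the dark zone, and cells selected in the light zone return there to divide.

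Library totals ran from 26823882 to 34240096 gene counts. The targeted gene, Ptbp1, stood at 353 to 486 CPM (a gene's share of the library's gene counts on the usual CPM scale, with TMM scaling) in control libraries and 82.5 to 121 CPM in cKO libraries, and its neuronal paralogue Ptbp2 at 8.60 to 19.3 CPM and 126 to 290.4 CPM. All 7 light zone markers were called higher in the light zone in both genotypes, and Cxcr4, a dark zone receptor, stood at 31.0 to 42.5 CPM in light zone and 73.7 to 88.0 CPM in dark zone libraries. The 10 markers of germinal centre and B cells summed to 8035 to 10694 CPM, and 0 of them stood at 0 CPM in every library. Markers of other cells were present at varying levels. The 10 macrophage and monocyte markers summed to 14.7 to 403 CPM in DZ control and 43.5 to 1223 CPM in DZ cKO libraries, the 8 T cell markers to 159 to 459 CPM in the light zone and 93.5 to 223 CPM in the dark zone, and the 7 plasma cell markers to 1195 to 2180 CPM in the light zone and 2308 to 10845 CPM in the dark zone; none of these lists was at 0 throughout, and their part in the results was not tested. In pooled cells, fewer dividing cells and less RNA per dividing cell cannot be told apart. Libraries of sort days 1 and 2 stood apart in the light zone, and the members' counts and medians are also given for each pair of days alone.

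The first question was how the 48 genes differ between the zones in control mice. All 48 stood lower in the light zone than in the dark zone, where 50% of all genes tested had a negative difference, and 13 of 48 were called lower at a Benjamini-Hochberg adjusted p under 0.05 (edgeR), against 3.33% of all genes tested. None was called higher. The median log2 fold change of the 48 was -0.53, against a median of -0.00026 over all genes. In 23 of 48 genes the 4 light zone libraries all lay below the 4 dark zone libraries (6.83% of all genes), and 44 were lower in the light zone on every sort day (18.9% of all genes). With the sort day as a block in the fit, 34 of 48 fell (6.53% of all genes), and with the pool as a block 28 fell (6.28% of all genes). Together the 48 genes took up 6671, 6542, 9158 and 9591 CPM in the light zone on sort days 1 to 4 (7991 ± 1609, SD, n = 4) and 10804, 11250, 12231 and 13718 CPM in the dark zone (12001 ± 1291, SD, n = 4). The ranges of these sums did not overlap.

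**Figure D1:**
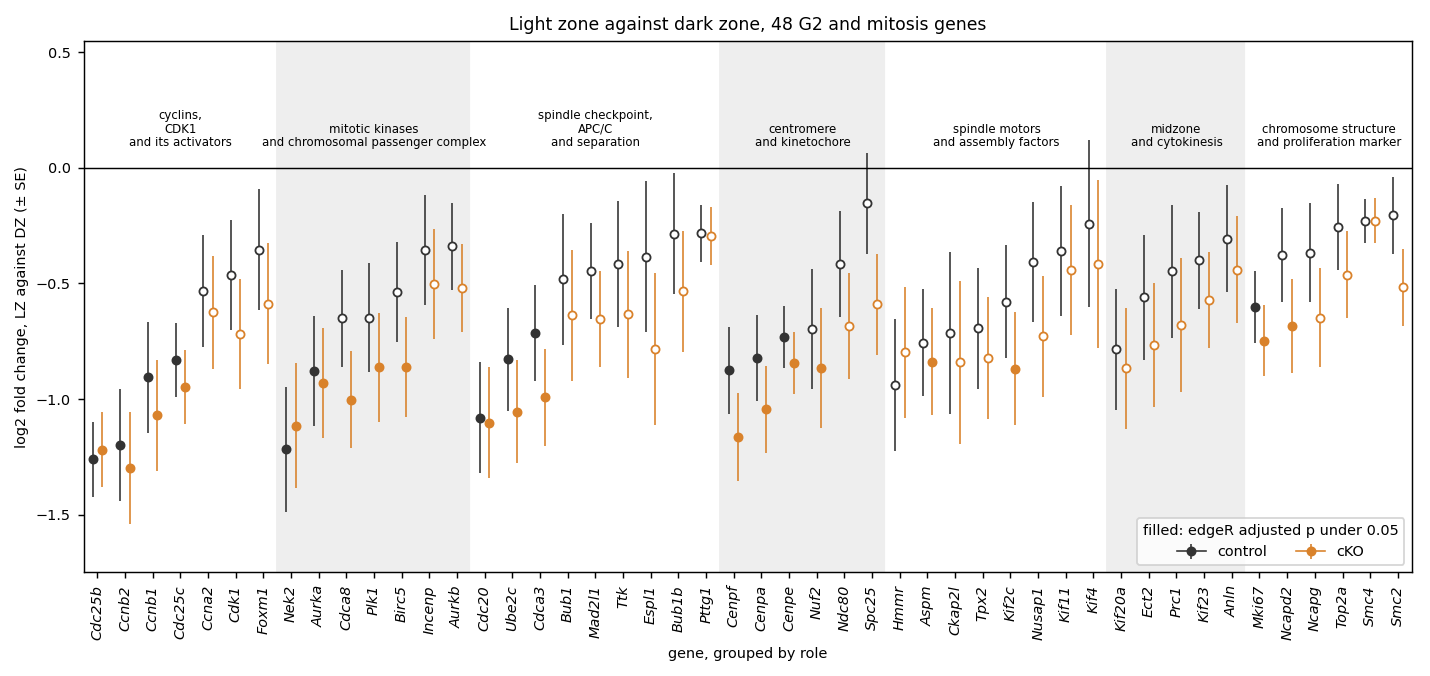
Log2 fold change of the light zone against the dark zone (vertical axis, ± SE from the edgeR fit) for each of the 48 genes, grouped by role, in control (black) and cKO (orange) cells, with filled points for an adjusted p under 0.05. All points lie below 0, from -1.30 for Ccnb2 in cKO to -0.15 for Spc25 in control, and the genes at the left of each role fell furthest.

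The cyclins, CDK1 and its activators held the largest differences, with a median of -0.83 in control cells and 4 of 7 called lower. Cdc25b encodes a phosphatase that activates CDK1 at mitotic entry. It stood at 183, 207, 244 and 265 CPM in the light zone and 495, 478, 539 and 639 CPM in the dark zone on sort days 1 to 4. The highest light zone library was below the lowest dark zone library, and the log2 fold change was -1.26 ± 0.16, adjusted p = 0.000183, the largest among the 48. Ccnb2, a B-type cyclin, stood at 146, 123, 206 and 225 CPM against 416, 340.2, 415 and 435 CPM, again without overlap (-1.20 ± 0.24, adjusted p = 0.00584). Ccnb1, the B-type cyclin essential for mitotic entry, stood at 127, 108, 175 and 186 CPM in the light zone. In the dark zone it stood at 249.99, 245, 297 and 322 CPM, above every light zone library, and it fell by 0.91 ± 0.24 on the log2 scale between the zones (adjusted p = 0.0296). Cdc25c, a further CDK1 phosphatase, also fell (-0.83 ± 0.16, adjusted p = 0.00444). The remaining members of this role were not called without the sort-day block. With it, 6 of 7 were called, Ccna2 and Cdk1 among them (adjusted p = 0.00831 and 0.0194), but not Foxm1 (adjusted p = 0.192). Ccna2, the cyclin that acts in S phase and G2, stood at 225, 232, 349.6 and 367 CPM against 382, 368, 468 and 479 CPM, with the highest light zone value just under the lowest dark zone value (-0.53 ± 0.24, adjusted p = 0.233). Cdk1 stood at 139.8, 118, 189.9 and 209.7 CPM against 236, 188, 239 and 245 CPM (-0.46 ± 0.24, adjusted p = 0.298). Its ranges overlapped. Foxm1, the transcription factor of G2 genes, stood at 79.5, 80.8, 92.6 and 109 CPM against 86.6, 110.3, 105 and 160.2 CPM (-0.35 ± 0.26, adjusted p = 0.516), and also overlapped.

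**Figure D2:**
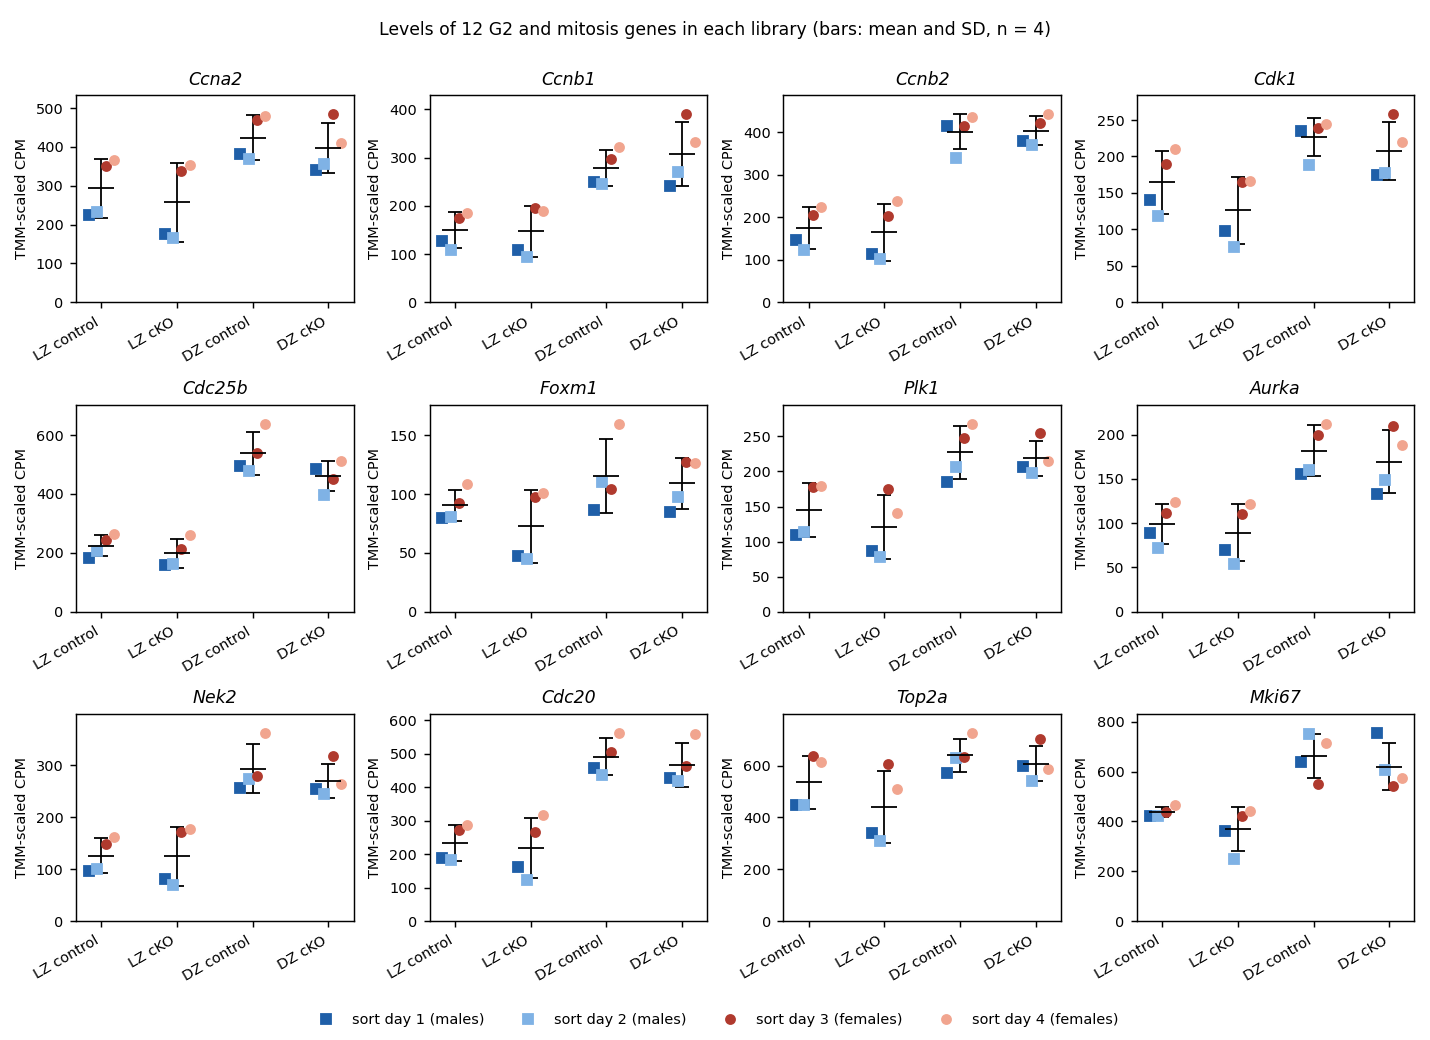
TMM-scaled CPM (vertical axes, from 0) of 12 genes in every library of the 4 groups, with squares for males, circles for females and bars for the mean ± SD (n = 4). Cdc25b, Ccnb2 and Cdc20 separate the zones fully, whereas Top2a and Foxm1 overlap, and in the light zone the squares lie below the circles.

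Among the mitotic kinases and the chromosomal passenger complex, 2 of 7 were called lower in the control light zone (median -0.65). Nek2 encodes a kinase that separates centrosomes. It stood at 95.9, 99.7, 148 and 161 CPM in the light zone and 256, 275, 279.7 and 363 CPM in the dark zone, with no overlap (-1.22 ± 0.27, adjusted p = 0.0109). Aurka, the centrosomal Aurora kinase, stood at 88.9, 72.4, 111 and 123 CPM against 156, 160.5, 199.7 and 213 CPM (-0.88 ± 0.24, adjusted p = 0.0340). Plk1, the polo-like kinase of mitotic entry and exit, stood at 109.9, 113, 177 and 179 CPM against 186, 207, 247 and 268 CPM. The groups did not overlap, but the difference was not called (-0.65 ± 0.24, adjusted p = 0.120). The passenger complex genes, which correct faulty chromosome attachments, were not called without the block either, from -0.65 ± 0.21, adjusted p = 0.0751 for Cdca8 to -0.34 ± 0.19, adjusted p = 0.344 for Aurkb. With the sort-day block 6 of the 7 genes of this role were called lower, Plk1, Cdca8, Birc5 and Aurkb included (adjusted p = 0.00374, 0.00273, 0.0187 and 0.0352), and Incenp was not (adjusted p = 0.126).

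In the spindle checkpoint, APC/C and separation role, 3 of 9 were called lower (median -0.45). Cdc20, the APC/C activator that the checkpoint restrains, stood at 189, 183, 271 and 286 CPM in the light zone and 459, 437, 507 and 563 CPM in the dark zone (-1.08 ± 0.24, adjusted p = 0.0110), and the groups did not overlap. Ube2c, the ubiquitin-conjugating enzyme of the APC/C, and Cdca3, an adaptor for destruction of WEE1, fell too (-0.83 ± 0.22, adjusted p = 0.0324, and -0.71 ± 0.21, adjusted p = 0.0475). The checkpoint genes Bub1, Bub1b, Ttk and Mad2l1 were not called, with log2 fold changes of -0.48, -0.28, -0.42 and -0.45. Neither were Espl1 (separase, -0.38) and Pttg1 (securin, -0.28). The sort-day block called 5 of 9, adding Bub1 and Mad2l1 (adjusted p = 0.0196 and 0.00841).

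Of the 6 centromere and kinetochore genes, 3 were called lower (median -0.71): Cenpf, a kinetochore protein made in G2 (-0.88 ± 0.19, adjusted p = 0.00883), Cenpa, the centromeric histone H3 variant (-0.82 ± 0.19, adjusted p = 0.0121), and Cenpe, a kinetochore motor (-0.73 ± 0.13, adjusted p = 0.00292). The NDC80 complex genes Nuf2, Ndc80 and Spc25, which bind microtubules, were not called, at -0.70, -0.42 and -0.15. With the sort-day block Nuf2 and Ndc80 were called too (adjusted p = 0.00384 and 0.0360), which made 5 of 6. None of the 8 spindle motors and assembly factors was called (median -0.64, with 4 at an unadjusted p under 0.05), although Hmmr, a microtubule-associated protein, had the fifth largest difference of the 48 (-0.94 ± 0.28, adjusted p = 0.0585). With the sort-day block 6 of these 8 were called lower. None of the 5 midzone and cytokinesis genes was called without the block (median -0.45, with 1 at an unadjusted p under 0.05), and 4 of 5 were called with it.

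The chromosome structure genes and the proliferation marker Mki67 differed least, with a median of -0.31 and 1 of 6 called. Mki67, the coat protein of mitotic chromosomes, stood at 420.2, 422, 439 and 465 CPM in the light zone and 636, 752, 549 and 713 CPM in the dark zone (-0.60 ± 0.15, adjusted p = 0.0255), without overlap. Top2a, the topoisomerase that untangles sister chromatids, stood at 447, 446, 635 and 613 CPM against 573, 628, 632 and 726 CPM, with overlapping ranges (-0.26 ± 0.19, adjusted p = 0.507). The condensin genes Smc2, Smc4, Ncapd2 and Ncapg, which compact chromosomes, lay between -0.38 and -0.21 and were not called. The sort-day block called Smc4 as well (adjusted p = 0.0456), 2 of 6 in this role. Differences between the roles were not tested.

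The called count in control cells moved with single libraries and days. It was 8 without LZ control 1, LZ control 2 or DZ control 4, and without whole sort days it was 2 (day 1), 9 (day 2), 4 (day 3) and 8 (day 4). Cdc25b kept its call in all 32 alternative settings tried. From sort days 1 and 2 alone 19 of 48 were called lower (median -0.71), and from sort days 3 and 4 alone 9 of 48 (median -0.395), with all 48 negative in both. These fits had 2 libraries per group. Their calls over all genes, in either direction, are given in the closing section. No share of all genes called lower is given for these fits, so the 2 counts lack a like background.

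In cKO cells the same comparison gave 20 of 48 genes called lower (4.18% of all genes) and none higher, with a median of -0.76. All 48 were negative (50.1% of all genes), 25 did not overlap between the zones (6.87%), and 47 were lower on all 4 sort days (18.7%). With the sort-day block 46 fell (8.99%), and with the pool block 45 fell (8.99%). All 13 genes called in control cells were among the 20, and the further 7 were Aspm, Birc5, Cdca8, Kif2c, Ncapd2, Nuf2 and Plk1. The sums were 5190, 4502, 8752 and 8812 CPM in the light zone (6814 ± 2290, SD, n = 4) and 10902, 10225, 12931 and 12069 CPM in the dark zone (11532 ± 1204, SD, n = 4).

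The 3 largest differences in cKO cells were those of Ccnb2, Cdc25b and Cenpf. Ccnb2 stood at 114, 102, 203 and 238 CPM in the light zone and 379.99, 369.8, 423 and 443 CPM in the dark zone (-1.30 ± 0.24, adjusted p = 0.00321). Cdc25b stood at 158, 161, 212 and 261 CPM against 485, 396, 451 and 512 CPM (-1.22 ± 0.16, adjusted p = 0.000251). Cenpf stood at 68.9, 43.6, 75.7 and 103 CPM against 173, 164, 146 and 169 CPM (-1.16 ± 0.19, adjusted p = 0.00112). None of the 3 overlapped between the zones. By role, 5 of 7 mitotic kinase and passenger complex genes were called, 4 of 7 cyclins and activators, 4 of 6 kinetochore genes, 3 of 9 checkpoint and APC/C genes, 2 of 8 spindle genes, 2 of 6 chromosome structure genes and 0 of 5 cytokinesis genes. With the sort-day block these counts were 7, 7, 6, 8, 7, 6 and 5 in the same order. Smc4 differed least (-0.23 ± 0.10, adjusted p = 0.163). The count was 12 without LZ cKO 1 or DZ cKO 3, 13 without DZ cKO 4 and 30 without LZ cKO 4. Without whole sort days it was 6 (day 1), 13 (day 2), 12 (day 3) and 14 (day 4). It was 40 from sort days 1 and 2 alone (median -1.15) and 14 from sort days 3 and 4 alone (median -0.506). The calls over all genes, in either direction, in these fits of 2 libraries per group are given in the closing section. No share of all genes called lower is given for them, so these 2 counts lack a like background.

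The next question was whether loss of PTBP1 changed these genes within a zone. In the light zone, 0 of 48 genes were called between cKO and control (1.08% of all genes in either direction). Of the 48, 4 had an unadjusted p under 0.05 (edgeR), against 2118 of all 15789 genes tested. The differences nevertheless lay on 1 side: 47 of 48 were negative (47.5% of all genes), the median was -0.19 against 0.019 over all genes, and 25 of 48 were lower in cKO on all 4 sort days (15.6% of all genes). The sort-day block called 4 of 48 lower (2.77% of all genes) and none higher, and DESeq2 called 0. From sort days 1 and 2 alone 0 were called and 48 of 48 were negative (median -0.425), and from sort days 3 and 4 alone 0 were called and 35 of 48 were negative (median -0.078). Markers of other cells also moved between the light zone groups. The 7 dendritic cell markers summed to 55.9 to 79.8 CPM in control and 120.4 to 156 CPM in cKO, without overlap. Among these 7, Flt3 alone was called (1.14 ± 0.11, adjusted p = 8.1e-05, edgeR). Batf3, Itgax, Zbtb46 and Siglech were higher in cKO and not called. Clec9a (-2.73 ± 1.78) and Xcr1 (-0.23 ± 0.52) were lower in cKO and not called. The 10 macrophage and monocyte markers summed to 23.3 to 389.9 CPM (median 54.5) and 78.2 to 487 CPM (median 199), and the 6 NK cell markers to 20.8 to 155 CPM (median 44.1) and 52.6 to 189 CPM (median 100.1). No marker of these 3 lists was at 0 in every library, and their part in the result was not tested.

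Kif2c, a kinesin that depolymerises microtubules, had the largest light zone difference. It stood at 66.4, 72.97, 121 and 117 CPM in control libraries of sort days 1 to 4. The cKO libraries held 44.1, 42.1, 84.1 and 82.3 CPM, lower in cKO on every day, with overlapping groups (-0.58 ± 0.24, adjusted p = 0.313, and 0.0168 once the sort day was blocked). Nusap1, which bundles spindle microtubules, stood at 170.1, 149, 271 and 285 CPM against 99.7, 95.8, 195 and 206 CPM and was also lower on each day (-0.55 ± 0.26, adjusted p = 0.371, and 0.0350 with the block). The other genes called with the block were Cdca8 and Aurkb, both of the chromosomal passenger complex (-0.44 ± 0.21, adjusted p = 0.374, and 0.0464 with the block, and -0.42 ± 0.19, adjusted p = 0.352, and 0.0243 with the block). Birc5, survivin of the same complex, had the third largest difference, at 217, 188, 254 and 275 CPM against 139, 97.7, 220.2 and 225 CPM, and was not called in either fit (-0.45 ± 0.22, adjusted p = 0.377, and 0.0589 with the block).

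The cyclins, CDK1 and its activators had a median of -0.18 between the genotypes in the light zone, and 0 of 7 were called in either fit. Ccnb1 stood at 108, 93.9, 195 and 189.7 CPM in cKO libraries, lower than its control on sort days 1 and 2 and higher on days 3 and 4 (-0.02 ± 0.24, adjusted p = 0.988). Ccna2 stood at 175, 165, 339 and 353 CPM (-0.19 ± 0.24, adjusted p = 0.830) and Cdk1 at 97.7, 75.8, 164 and 166 CPM (-0.38 ± 0.24, adjusted p = 0.538), both below control on each day. Foxm1 stood at 47.5, 44.5, 97.8 and 101 CPM, with the male libraries under every control library and the female libraries among them (-0.32 ± 0.26, adjusted p = 0.689). Plk1 stood at 86.7, 78.4, 175 and 141 CPM (-0.27 ± 0.23), Aurka at 69.7, 54.04, 111 and 122 CPM (-0.15 ± 0.24) and Cdc20 at 162, 124, 267 and 316 CPM (-0.095 ± 0.24). Top2a stood at 340.03, 309, 605 and 508 CPM (-0.28 ± 0.19) and Mki67 at 360.1, 249, 422 and 443 CPM (-0.24 ± 0.15). For each of these 5 genes the days 1 and 2 libraries were the 2 lowest of the cKO group.

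In the dark zone, 0 of 48 genes were called between cKO and control (0.627% of all genes), with the sort-day block as well (3.27% of all genes), DESeq2 called 0, and 0 had an unadjusted p under 0.05. The median was -0.054, with 29 of 48 negative (48.3% of all genes), and it turned to 0.039 without DZ control 4 and to 0.012 without DZ cKO 2. It was -0.070 from sort days 1 and 2 alone and -0.053 from sort days 3 and 4 alone, with 0 called in both. Kif2c, Aurkb and Nusap1 had the largest differences, at -0.29 ± 0.24, -0.24 ± 0.19 and -0.23 ± 0.26. Kif2c stood at 115, 136, 146 and 166 CPM in the control group against 102, 100.4, 128 and 130.5 CPM in the cKO group. Aurkb stood at 267, 242, 290.2 and 322 CPM against 207, 224, 255 and 265 CPM. Nusap1 stood at 268, 248, 318 and 324 CPM against 239, 202, 307 and 239.7 CPM, and the groups overlapped for all 3.

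For the members with values in every library, the dark zone cKO levels on sort days 1 to 4 were as follows. Ccna2 stood at 340.4, 356, 484 and 409.5 CPM and Ccnb1 at 242, 269, 389.9 and 331 CPM. On the female days Ccnb1 lay above every dark zone control library, as did Ccna2 on day 3. On day 4 Ccna2 lay within the range of all control libraries but below the female ones (468 and 479 CPM). Cdk1 stood at 174, 177, 258 and 219.97 CPM and Foxm1 at 84.6, 97.7, 128 and 127 CPM. Plk1 stood at 206, 198, 254 and 216 CPM, Aurka at 133, 148, 209.7 and 188 CPM and Cdc20 at 427, 418, 464 and 559.7 CPM. Top2a stood at 597, 541, 702 and 587 CPM and Mki67, whose highest dark zone cKO library was from males, at 755, 605, 541 and 575 CPM. Control and cKO ranges overlapped for each of these 9 genes.

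The interaction of zone and genotype asked whether the genotype difference depends on the zone. It called 0 of 48 genes and 0% of all genes, with 0 members at an unadjusted p under 0.05 and 0 members called by DESeq2. The median was -0.18, with 44 of 48 negative (51% of all genes), so the genotype difference was lower in the light zone for most members without passing the test. The largest values were those of Spc25 (-0.44 ± 0.31), Espl1 (-0.40 ± 0.46) and Cdca8 (-0.35 ± 0.30), each with an adjusted p of 0.9998 (edgeR). Spc25 stood at 83.5, 82.4, 102 and 122 CPM in LZ control and 53.4, 44.4, 85.4 and 105 CPM in LZ cKO. Its dark zone levels were 109, 97.8, 108 and 119.7 CPM for control libraries and 92.02, 97.3, 123 and 122 CPM for cKO libraries. Both light zone cKO libraries of males were below every other library. Espl1, separase, stood at 67.4, 74.97, 94.5 and 106 CPM in LZ control, 52.96, 29.4, 111 and 97.7 CPM in LZ cKO, 75.9, 119, 86.3 and 167 CPM in DZ control and 109, 124, 136 and 131 CPM in DZ cKO, with the same 2 libraries lowest. Cdca8, borealin of the passenger complex, stood at 178, 177, 248 and 270.4 CPM, 139, 93.7, 204 and 205 CPM, 306, 314, 356 and 395 CPM and 288, 296, 351 and 351 CPM in the same order, again with those 2 lowest. The members' median for the interaction was -0.382 from sort days 1 and 2 alone and -0.043 from sort days 3 and 4 alone.

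The largest differences within groups followed the sort days. In the light zone cKO group, the sum of the 48 genes was 5190 and 4502 CPM on days 1 and 2 (males) but 8752 and 8812 CPM on days 3 and 4 (females). Because each sex was sorted on its own days, sex and sort day cannot be told apart. A further edgeR fit, chosen after the data were seen, took males and females of each group as separate groups of 2 and tested 17074 genes. It called 36 of 48 genes lower in males of the LZ cKO group (0.972% of all genes) with a median of -0.95, and 5 of 48 in LZ control (0.041% of all genes) with a median of -0.59. It called 0 of 48 in DZ control (0.00586% of all genes) and in DZ cKO (0.00586% of all genes), where the medians were -0.28 and -0.29. There, 22 members in each group had an unadjusted p under 0.05, against 1031 and 1347 of all 17074 genes. Both males lay below both females for 47 of 48 genes in LZ control (21.1% of all genes), 46 in LZ cKO (23.1%), 32 in DZ control (16.8%) and 37 in DZ cKO (18.6%). The count in LZ cKO was 22 without LZ cKO 2, 19 without LZ cKO 3 and 18 without LZ cKO 4, and the count in LZ control was 0 without any 1 of its own 4 libraries or DZ cKO 2, 1 without DZ control 3 or 4, and 2 without LZ cKO 3 or 4. The split was not limited to the members. Of 32 DNA replication and G1/S genes, the same fit called 12 lower in males of LZ cKO, with 31 negative (median -0.68). In LZ control 0 of the 32 were called, with 31 negative (median -0.40). In the dark zone 0 were called, with 30 negative in control (median -0.16) and 31 in cKO (median -0.31).

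**Figure D3:**
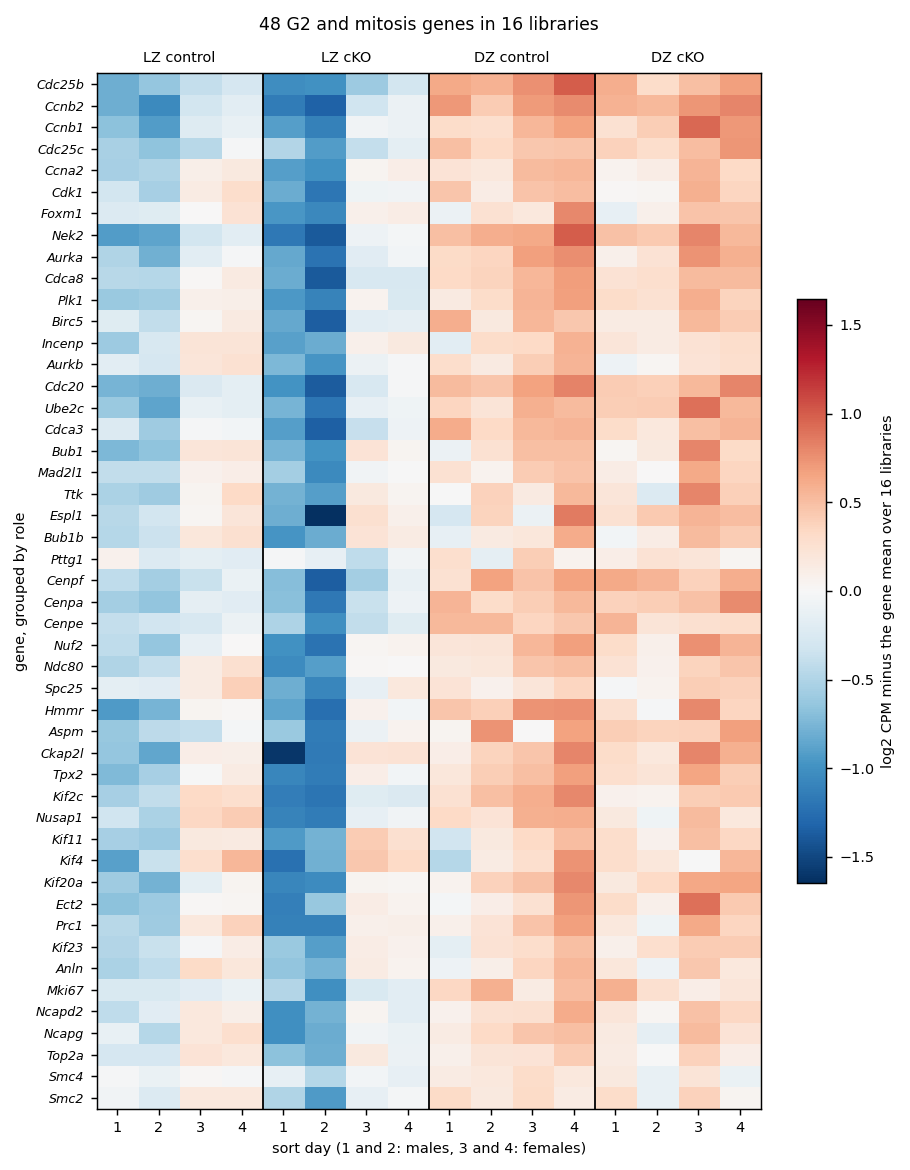
Log2 CPM of each of the 48 genes (rows, grouped by role) in each of the 16 libraries (columns), minus the gene's mean over the 16 libraries, with blue for lower and red for higher. The light zone cKO libraries of sort days 1 and 2 are the bluest columns, with Pttg1 and Smc4 paler there than the other genes.

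In LZ cKO the largest male-to-female difference was that of Ckap2l, a spindle-associated protein (-1.61 ± 0.17, adjusted p = 0.00102, edgeR). It stood at 42.9, 58.1, 152 and 153 CPM on sort days 1 to 4. The next called were Kif4, a chromosome-bound kinesin whose gene lies on chromosome X (-1.39 ± 0.26, adjusted p = 0.0294), at 34.7, 46.7, 109.6 and 101 CPM, and Nek2 (-1.23 ± 0.13, adjusted p = 0.00115), at 80.5, 69.9, 171 and 177 CPM. In all 3 both males lay below both females. The 5 genes called in LZ control were Nusap1, Prc1, Kif2c, Ccna2 and Ndc80, at -0.83 to -0.67. Pttg1 was the exception, with 0.13 ± 0.19 in LZ cKO and 0.072 ± 0.19 in LZ control. It stood at 31.1, 28.7, 23.7 and 30.4 CPM in LZ cKO libraries, where the lowest value was from females.

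The zone and genotype differences were correspondingly uneven over the days. Averaged over the 48 genes, the light zone was below the dark zone in cKO cells by -1.08 and -1.20 on days 1 and 2 and by -0.58 and -0.44 on days 3 and 4, and in control cells by -0.68, -0.80, -0.42 and -0.50. The light zone cKO-to-control difference averaged -0.37 and -0.53 on days 1 and 2, with 45 and 47 of 48 genes lower. On days 3 and 4 it averaged -0.058 and -0.12, with 30 and 36 of 48 lower. In the dark zone it averaged 0.037, -0.13, 0.11 and -0.17. The sex difference of the light zone genotype effect was tested in the same fit. It called 0 of 48 genes and 0% of all genes, with 47 of 48 negative and a median of -0.33. An unadjusted p under 0.05 was reached by 13 members, against 423 of all 17074 genes. The sex difference of the zone effect was called for 0 members and 0% of all genes in either genotype. In cKO cells 47 members were negative (median -0.61), with 38 at an unadjusted p under 0.05 (623 of all genes). In control cells 46 were negative (median -0.32), with 11 at that level (441 of all genes). For the dark zone genotype effect 0 were called, 32 were negative (median -0.027) and 0 reached that level (436 of all genes).

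**Figure D4:**
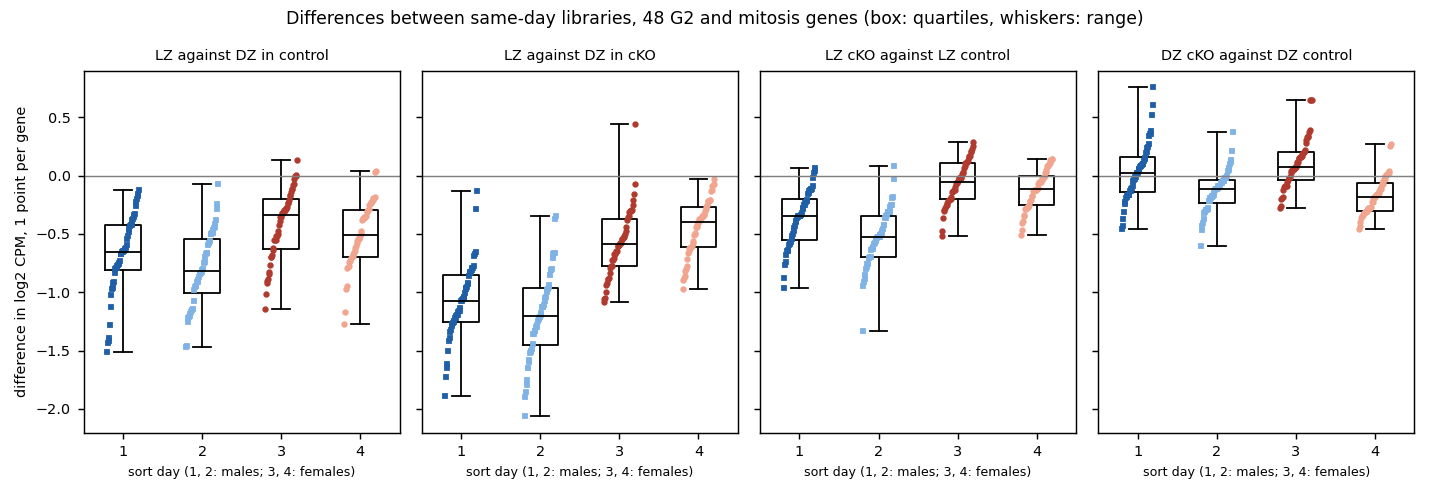
Difference in log2 CPM between libraries of the same sort day (vertical axis) for each of the 48 genes, 1 point per gene, in 4 comparisons, with boxes for quartiles and whiskers for the range. Days 1 and 2 lie lower than days 3 and 4 in the 3 comparisons that include the light zone, and the dark zone comparison stays around 0.

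The members moved together across libraries. After the group means were removed, the median Pearson correlation over their 1128 pairs was 0.86, as a description of 16 libraries that share pools and sort days. The same correlation was not computed for other genes, so the value is not shown to be particular to the members. Nek2, Prc1, Tpx2 and Ccna2 followed the mean of the other members most closely (r = 0.987, 0.986, 0.981 and 0.981). Pttg1 did not follow it (r = -0.289), and Mki67 and Smc4 followed it more loosely (r = 0.545 and 0.554).

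Other genes of the same machinery were counted from lists of related genes. Of all genes tested, 3.33% fell in the light zone of control cells and 4.18% in that of cKO cells. Of 20 further spindle and cytokinesis genes, 2 fell in the light zone of control cells, with a median of -0.41 over the list: Psrc1, a microtubule-binding protein (-1.22 ± 0.21, adjusted p = 0.00170), and Knstrn, a kinetochore-localised spindle protein (-1.07 ± 0.23, adjusted p = 0.0101). In cKO cells 6 of 20 fell, with a median of -0.66, led by Psrc1 (-1.42 ± 0.21, adjusted p = 0.00051), Knstrn (-0.96 ± 0.23, adjusted p = 0.0167) and the kinesin Kif18b (-0.89 ± 0.26, adjusted p = 0.0406). Of 29 further kinetochore and checkpoint genes, 0 were called between the zones in control cells (median -0.23, with 3 at an unadjusted p under 0.05) and 7 fell in cKO cells (median -0.51), led by Sgo2a, a protector of centromeric cohesion (-1.003 ± 0.23, adjusted p = 0.0131), Cenpt (-0.69 ± 0.15, adjusted p = 0.00719) and Cenpm (-0.60 ± 0.16, adjusted p = 0.0271). Of 17 APC/C subunits and partners, 2 fell in control and 4 in cKO cells, with Ube2s, which extends ubiquitin chains, leading both (-0.50 ± 0.12, adjusted p = 0.0162, and -0.66 ± 0.12, adjusted p = 0.00255). Of 15 further condensin and cohesin genes, 2 fell in each genotype, the cohesin genes Rad21 and Smc3. Of 14 G2 checkpoint and mitotic entry genes, 0 were called in control cells (3 at an unadjusted p under 0.05) and 2 fell in cKO cells, the CDK-binding proteins Cks1b and Cks2. None of the 12 DREAM, MuvB and B-MYB regulators was called in either genotype (1 at an unadjusted p under 0.05 in each). None of these genes was called higher in the light zone without the block. The sort-day block raised the counts of genes called lower in control cells to 12 of 20 spindle genes, 4 of 29 kinetochore and checkpoint genes, 5 of 17 APC/C genes, 1 of 14 checkpoint and entry genes and 1 of 12 regulators (Lin54), and left the condensin and cohesin genes at 2 of 15. In cKO cells the counts with the block were 13, 19, 6, 3, 1 (Tfdp1) and 6. Over all genes, the block called 6.53% lower in control and 8.99% in cKO cells. The counts of 1 gene per list lie near these shares. With the block, Chek2, a checkpoint kinase, was called higher in the light zone of control cells (0.39 ± 0.14 and adjusted p = 0.120 without the block, 0.0232 with it).

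DNA replication and G1/S genes act before G2. Of 32 such genes, 1 fell between the zones in control (median -0.19) and 2 in cKO cells (median -0.40), against the shares of 3.33% and 4.18% of all genes. With the sort-day block 4 of 32 fell in control and 23 of 32 in cKO cells, against 6.53% and 8.99% of all genes. In the light zone, 0 of the 32 were called between cKO and control (13 at an unadjusted p under 0.05, against 2118 of all 15789 genes). All 32 were negative with a median of -0.34, and 13 fell with the sort-day block. Among the other lists of related genes, 2 genes were called lower in light zone cKO cells without the block, against 62 of all 15789 genes. They were Cenph, of the inner kinetochore (-0.87 ± 0.16, adjusted p = 0.0200), and Anapc15, an APC/C subunit (-0.84 ± 0.16, adjusted p = 0.0241). With the block, 6 of 29 kinetochore and checkpoint genes, 4 of 17 APC/C genes, 3 of 14 checkpoint and entry genes, 2 of 15 condensin and cohesin genes, 1 of 20 spindle genes and 0 of 12 regulators fell there, where 2.77% of all genes fell. No source used here gives the strand setting of the counting, so reads of overlapping antisense genes are not separated for any of these genes.

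Promoter sequences were examined as a description of what the members share. RefSeq promoters (GRCm38.p6), 250 bases before to 50 bases after the start, were found for 40 of 48 members and 27025 genes in all. The CHR was searched as TTTGAA or TTCGAA, the CCAAT box as CCAAT, and E2F sites as TTTGGCGC, TTTCCCGC, TTTGCCGC or TTTCGCGC, each on both strands. The promoters of 5 genes with the largest zone differences in either genotype (the 4 largest in control and the 3 largest in cKO cells) are printed from 100 bases before to 20 bases after the start, on the gene's strand, with CHR and CCAAT matches in capitals (TTTGAA or its reverse complement, TTCGAA, and CCAAT or ATTGG).
Cdc25b (chr2:131186848-131186967, plus strand): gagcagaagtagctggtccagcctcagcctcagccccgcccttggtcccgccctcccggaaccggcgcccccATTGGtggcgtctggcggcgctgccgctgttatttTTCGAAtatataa
Ccnb2 (chr9:70421535-70421654, minus strand): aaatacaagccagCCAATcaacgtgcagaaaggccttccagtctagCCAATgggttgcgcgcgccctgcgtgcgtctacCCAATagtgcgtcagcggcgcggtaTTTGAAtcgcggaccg
Nek2 (chr1:191821373-191821492, plus strand): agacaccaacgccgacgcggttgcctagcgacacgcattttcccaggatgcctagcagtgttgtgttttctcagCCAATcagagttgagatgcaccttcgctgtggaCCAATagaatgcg
Cdc20 (chr4:118437324-118437443, minus strand): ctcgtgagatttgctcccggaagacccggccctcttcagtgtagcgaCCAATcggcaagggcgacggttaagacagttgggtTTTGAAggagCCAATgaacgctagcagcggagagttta
Cenpf (chr1:189688067-189688186, minus strand): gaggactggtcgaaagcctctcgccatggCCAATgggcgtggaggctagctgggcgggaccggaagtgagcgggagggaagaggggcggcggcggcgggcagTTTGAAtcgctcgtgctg
In the stretches of Cdc25b, Ccnb2, Cdc20 and Cenpf 1 CHR match lay downstream of at least 1 CCAAT match, and in that of Nek2 there were 2 CCAAT matches.

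A CHR match was present in 32 of 40 member promoters (80.0%), against 21.7% of all genes in the table. CCAAT was present in 32 of 40 (80.0%) against 41.1%, both motifs together in 29 of 40 (72.5%) against 8.61%, and an E2F site in 3 of 40 (7.5%) against 2.61%. The E2F matches were in Cdk1, Ncapd2 and Ncapg. In the narrower window of 40 bases before to 50 after the start, chosen after the match positions were seen, 29 of 40 members (72.5%) and 5.48% of all genes held a CHR match. The 8 members with a promoter but no CHR match were Birc5, Ccnb1, Cenpe, Mad2l1, Nek2, Nuf2, Nusap1 and Pttg1. Their median zone difference in control cells was -0.62, against -0.52 for the 32 with a match, so both sets were lower in the light zone. A match describes letters only and is not evidence of binding.

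**Figure D5:**
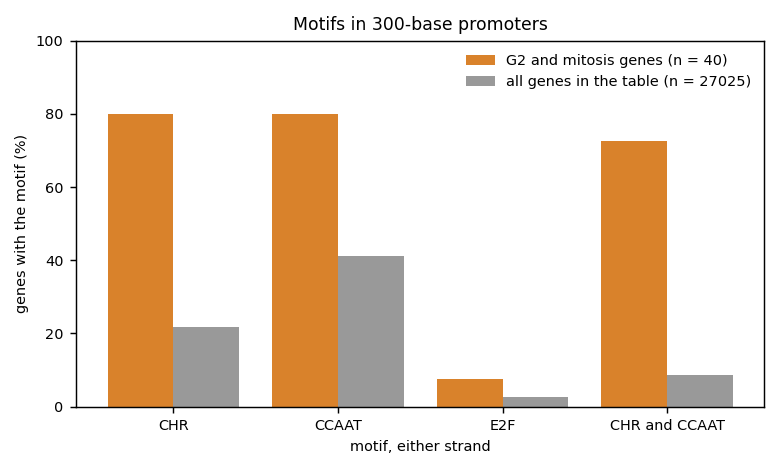
Share of genes (vertical axis, %) whose promoter, 250 bases before to 50 after the start, holds the CHR, CCAAT or E2F motif or both CHR and CCAAT on either strand, for 40 G2 and mitosis genes (orange) and 27025 genes (grey). The orange bars for CHR and CCAAT both reach 80.0%, against 21.7% and 41.1% in grey.

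PTBP1 contact with member transcripts was described from iCLIP, which maps crosslinks of a protein to RNA at single bases. These 5 libraries were made from splenic B cells of females after 48 h in culture with lipopolysaccharide, a mitogen, and not from germinal centre cells, and no control immunoprecipitation was used here. In the authors' pooled list of 244659 sites, 31 of 40 members with a known strand held at least 1 site on that strand (77.5%), against 49.3% of 10430 genes in the promoter and gene tables. The median was 21 sites per member and 0 per gene among all genes, for median genomic spans of 27385.5 and 21690 bases. For the other 8 members both strands were searched, and 6 held a site, which may lie on an antisense gene. A site of at least 5 cDNAs was present in 10 of 40 members (25%) against 10.8% of genes, and a site found in at least 3 of the 5 replicate lists in 1 of 40 (2.5%) against 3.64%. That member was Ube2c. Site counts rise with RNA abundance, which was not measured in the cultured cells.

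Kif11, a spindle motor, held the most sites, 99, followed by Kif4 with 76 among members of known strand, then Cenpa with 62. The strongest site in a member was in Cenpa, at chr5:30670196 on the plus strand (mm10), with 13 cDNAs. Those of Top2a (chr11:98999636, minus strand), Cdc25b (chr2:131197989, plus strand) and Ube2c (chr2:164772588, plus strand) had 11, 10 and 9 cDNAs, and the Ube2c site was in 4 replicate lists. Whether these positions are exonic or intronic was not analysed here. Of the 4 genes that fell in light zone cKO cells with the sort-day block, Nusap1 held 49 sites and Kif2c 4, while Cdca8 and Aurkb held 0. Cdc20, Cenpf, Foxm1, Pttg1, Aspm, Mad2l1, Ndc80, Spc25 and Cdca3 also held 0 in the pooled list. Single replicate lists did hold sites in Ndc80 (4 in replicate 2) and Cenpf (3 in replicate 4).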

How the data were processed

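The 48 genes and the lists of related genes were chosen with earlier results of these data known. Values in every library were given for a set list of 9 genes and for the 3 called members of largest change per comparison (where none was called, the 3 of largest absolute change). A gene of the replication list is counted but not reported here.

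The mRNA files hold raw counts per Ensembl gene, as deposited by the authors. Poly(A) RNA from 2 ng of total RNA was converted to cDNA, and 0.5 ng of cDNA was amplified over 8 PCR cycles, per the labels' protocols. The submitters' processing notes name Trim Galore 0.4.2 for trimming, HISAT2, HTSeq and the GRCm38 build. No source used here gives the annotation release or whether strand was used. Lines that name no gene held 41.4% to 49.8% of entries per library and stayed out of library sizes and tests. The iCLIP files hold a signed cDNA score per site, as deposited by the authors, on mm10 and at a false discovery rate under 0.05 per the file headers. The submitters' processing notes name Bowtie.

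Tests used edgeR 4.0.16 under R 4.3.3 (minimum count 10, TMM scaling, robust quasi-likelihood fit of all 16 libraries, two-sided contrasts). Calls are Benjamini-Hochberg adjusted p under 0.05 over 15789 genes. Levels are TMM-scaled CPM computed from the counts. The tests were also run on simulated counts of independent libraries. Those held no sort-day, sex or pool effects, so that check does not cover such effects in these data. The labels give the replicate number as the sort day, so same-numbered libraries are paired. Their deviations from the group means correlated at 0.153 to 0.468. The same correlation was not computed between libraries of different days, so these values do not show pairing by day. The fit with a sort-day block is given beside the counts it changed. Replicates differed beyond sampling noise (chi-square per degree of freedom 22.2 to 167). Alternatives were other scalings and filters, DESeq2 1.42.0, blocks, single sexes and libraries left out. Member levels were not compared between genes, since transcript lengths were not used here. Promoters and gene positions came from RefSeq tables (GRCm38.p6).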

Additional observations from a re-analysis of the deposited data

Results flagged for a closer look

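In 192 sets of 4 libraries (48 genes in 4 groups), 2 had a single library far from the others, by Dixon's test at the 95% level. Chance alone flags about 1 in 20 sets. Cdk1 stood at 188 CPM in DZ control 2 against 236 to 245 CPM in the other 3 libraries, and Aspm, a spindle pole protein, stood at 129.94 CPM in DZ cKO 4 against 105 to 108 CPM.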

How the results depend on the processing

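With the sort day as a replicate block, the light zone cKO comparison called 4 members and 868 genes (171 genes without it), the dark zone cKO comparison 517 genes (99), the zones in control 34 members and 2166 genes (1183), and the zones in cKO 46 members and 2727 genes (1436). With the pool as the block the zones gave 28 members and 2186 genes in control and 45 members and 2810 genes in cKO. DESeq2 called 585 and 491 genes in the light and dark zone cKO comparisons, 33 members and 2214 genes between the zones in cKO and 6 genes for the interaction (0 with edgeR). Without the filter on low counts the light zone cKO comparison called 102 genes. Fitting only the 2 groups compared gave 98 and 52 genes for the light and dark zone cKO comparisons, and 12 members and 820 genes for the zones in cKO. In males alone (sort days 1 and 2) the calls, in either direction, were 3 and 2 genes for the light and dark zone cKO comparisons. They were 288 genes for the zones in control, and 40 members and 451 genes for the zones in cKO. The members' median log2 difference was then -0.425 for the light zone cKO comparison and -1.15 for the zones in cKO. In females alone (sort days 3 and 4) the calls were 9, 4, 257 and 364 genes in the same order, and the light zone cKO differences of Ccnb1 and Cdc20 were 0.0877 and 0.0592. Between the sexes in control light zone libraries, the members called were 3 with DESeq2's size factors, 1 with no scaling factor and 16 with no filter.

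Leaving out 1 library or 1 sort day at a time, the light zone cKO comparison called 17 to 195 genes, with log2 differences of -0.187 to 0.145 for Ccnb1, -0.342 to 0.0253 for Aurka and -0.332 to 0.0995 for Cdc20. The dark zone cKO comparison called 23 to 101 genes, with a members' median of -0.132 to 0.0387. The zones in control gave 2 to 16 members and 576 to 1213 genes, the zones in cKO 6 to 30 members and 672 to 1459 genes, and the interaction 0 to 1 gene. The sexes differed in 0 to 7 members in control and 18 to 38 in cKO light zone libraries. The cause was not tested where these values changed. Of the 13 genes called between the zones in control, Cdc25b kept its call in all 32 alternatives, and of the 20 called in cKO, 4 did (Ccnb2, Cdc25b, Cenpa and Cenpe). The sort-day block left 0 members called in the dark zone cKO comparison and in the interaction.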
